A study of Mus musculus with 6 samples.

Results

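Glutathione S-transferases (GSTs) were examined in liver as 10 genes of 4 classes of the cytosolic family, chosen by name from the deposited table of 40481 genes, namely 4 alpha genes (Gsta1, Gsta2, Gsta3 and Gsta4), 4 mu genes (Gstm1, Gstm2, Gstm3 and Gstm4), the pi gene Gstp1 and the theta gene Gstt1. All 10 passed the filter on low counts and were tested. Liver RNA came from male C57BL/6 mice of 12 to 16 weeks that carried floxed Mttp alleles and a tamoxifen-inducible Cre driven in intestinal epithelium by the Villin promoter, and that were fed a methionine- and choline-deficient (MCD) diet for 3 weeks. All mice had fasted for 4 h. *Mttp-IKO* mice had received tamoxifen; the controls, called wild type in the sample labels, were given vehicle per the design text and the methods. Each genotype was represented by 3 pools of RNA, with 3 to 4 mice in a pool, so that a replicate was a pool, and p-values measured the spread between pools. Which mice entered which pool was not given, and the diet was shared by both genotypes, so that no chow-fed liver stood beside them.

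GSTs join the tripeptide glutathione to electrophiles, such as epoxides and the aldehydes of lipid peroxidation. The cytosolic enzymes work as dimers of subunits of the same class, and the conjugates leave the cell through transporters of the MRP family and are trimmed to mercapturates. Many GST genes are known to respond to the transcription factor NRF2 and to the xenobiotic receptors CAR and PXR, and several differ between male and female mouse liver. The sulfur of glutathione comes from cysteine, which the liver can make from methionine, the amino acid that the MCD diet lacks.

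The 4 alpha genes and the 4 mu genes differ in how far their transcripts can be told apart, which matters because the authors counted only reads with a single place in the genome. The stretches below show this at the same 60 coding bases of exon 6 of the alpha genes, taken from GENCODE M21 transcripts of GRCm38 and chosen as the stretch where Gsta1 and Gsta2 differ most. They lie at chr9:78241561-78241620 (Gsta1, plus strand), chr9:78332125-78332184 (Gsta2, minus strand), chr1:21262827-21262886 (Gsta3, plus strand) and chr9:78207835-78207894 (Gsta4, plus strand), and read 5′ to 3′ along the transcript. Capitals in Gsta1 mark bases that differ from Gsta2, and capitals in the other genes mark bases that differ from Gsta1.
Gsta1: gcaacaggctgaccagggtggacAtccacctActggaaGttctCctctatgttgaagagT
Gsta2: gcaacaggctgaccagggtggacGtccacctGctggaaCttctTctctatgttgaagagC
Gsta3: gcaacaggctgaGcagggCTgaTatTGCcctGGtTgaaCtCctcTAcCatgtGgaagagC
Gsta4: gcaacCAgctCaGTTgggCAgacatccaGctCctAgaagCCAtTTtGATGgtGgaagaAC
Even in this stretch Gsta2 differed from Gsta1 at 5 bases, against 17 for Gsta3 and 23 for Gsta4. Over the whole coding sequence, Gsta1 and Gsta2 were identical at 655 of 669 aligned bases (97.9%), Gsta1 and Gsta3 at 74.2% and Gsta1 and Gsta4 at 65.8%. Only 10.3% of the 826 different runs of 50 bases in Gsta1 coding transcripts were found in no other gene, since 82.9% also occurred in Gm3776 and 44.6% in Gsta2. Gsta2 had 52.6% of such runs to itself, and the annotated alpha gene copy Gm10639 shared 32.9% of them. The counts of Gsta1 and Gsta2 therefore rest on the part of each transcript that is its own, whereas every run of Gsta3 and Gsta4 was found in that gene alone. The length of the sequenced reads was not given in the sources used here, and Gm3776 was not analysed here.

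The mu genes lie side by side on chromosome 3, on the minus strand, and were 79.2% to 89.5% identical over their coding sequence, with Gstm1 and Gstm3 the closest pair. Gstm1 is the most abundant mu gene, and Gstm3 the only mu gene of the 4 that passed the test below. The 60 coding bases of exon 8 in which Gstm1 and Gstm3 differ most are given for all 4 genes. They lie at chr3:108012692-108012751 (Gstm1), chr3:107964210-107964269 (Gstm3), chr3:107982052-107982111 (Gstm2) and chr3:108041239-108041298 (Gstm4) of GRCm38. Capitals in Gstm1 mark bases that differ from Gstm3, and capitals in the other genes mark bases that differ from Gstm1.
Gstm1: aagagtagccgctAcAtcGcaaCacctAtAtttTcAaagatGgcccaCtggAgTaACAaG
Gstm3: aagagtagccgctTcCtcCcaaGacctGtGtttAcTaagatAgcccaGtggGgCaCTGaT
Gstm2: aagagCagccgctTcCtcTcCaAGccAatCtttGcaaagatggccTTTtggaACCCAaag
Gstm4: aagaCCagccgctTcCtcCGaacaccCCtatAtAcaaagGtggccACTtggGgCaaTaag
Gstm3 differed from Gstm1 at 16 of these bases, Gstm2 at 18 and Gstm4 at 17. Of runs of 50 bases, 80.1% of those of Gstm1 and 71.2% of those of Gstm3 were found in no other gene, against 91.7% for Gstm2, and every run of Gstm4 was its own. Gstp1 had 49.0% of its runs to itself, since Gstp2, its neighbor on chromosome 19, shared 51.0% of them, while Gstt1 shared none. Coding sequences of different classes were 48.6% to 56.4% identical over 33 pairs.

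The pools held 25271585 to 36238734 reads on genes, and values are given below as CPM, counts relative to the pool's total, after TMM scaling in edgeR. Mttp, the targeted gene, was at 90.4, 186 and 175 CPM in control pools 1 to 3 and at 145, 129 and 161 CPM in *Mttp-IKO* pools 1 to 3, but Cre is not driven in liver, so that these values do not check the labels. Among marker lists of 10 genes each, hepatocyte genes summed to 74500 to 111200 CPM in control and 136200 to 185000 CPM in *Mttp-IKO* pools with 0 genes past an adjusted p of 0.05 (edgeR), stellate cell genes to 969 to 1773 against 499 to 575 CPM with 6 lower, and recruited macrophage genes to 528 to 1444 against 231 to 290 CPM with 7 lower. Of the other lists of 10 genes, those of cholangiocytes and endothelial cells held 0 genes past this threshold. Log2 fold changes were below 0 for 8 and 6 of their genes, with medians of -0.75 and -0.12. The Kupffer cell list held 1, which was higher in *Mttp-IKO* pools, while 7 of its 10 genes had log2 fold changes below 0 (median -0.45). A list of 6 striated muscle genes summed to 0.875 to 553 CPM in control and 0.461 to 1.03 CPM in *Mttp-IKO* pools, and of 2 tested 0 passed. The part of muscle RNA in the control pools was not tested. None of these markers was at 0. *Mttp-IKO* pool 3 stood apart, with a share of small RNA genes of 0.289%, where the others held 1.92% to 3.51%, and 1.84% on coding genes of 300 to 1000 nt against 3.98% to 4.28%. The part of cell types and of this pool in the results was not tested, except where values without the pool are given, and in such bulk RNA fewer cells of a type and less RNA per cell cannot be told apart.

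Of the 10 GST genes, 2 passed an adjusted p of 0.05 (edgeR's quasi-likelihood test, adjusted by Benjamini-Hochberg over 17287 genes), and both, Gsta2 and Gstm3, were lower in *Mttp-IKO* pools. Over all genes tested, 4.01% passed this threshold, 3.09% lower and 0.920% higher. At an adjusted p of 0.1 the same count of 2 GST genes stood beside 9.59% of all genes. A log2 fold change below 0 was found in 9 of the 10 GST genes, with a median of -0.59, beside 49.5% and a median of 0.0057 over all genes. Pools of the genotypes did not overlap in 5 GST genes, Gsta2 and the 4 mu genes, all lower in *Mttp-IKO* livers, where 31.0% of all genes did not overlap and 16.5% did so with lower values. The plot of the members by pool shows these levels.

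**Figure D1:**
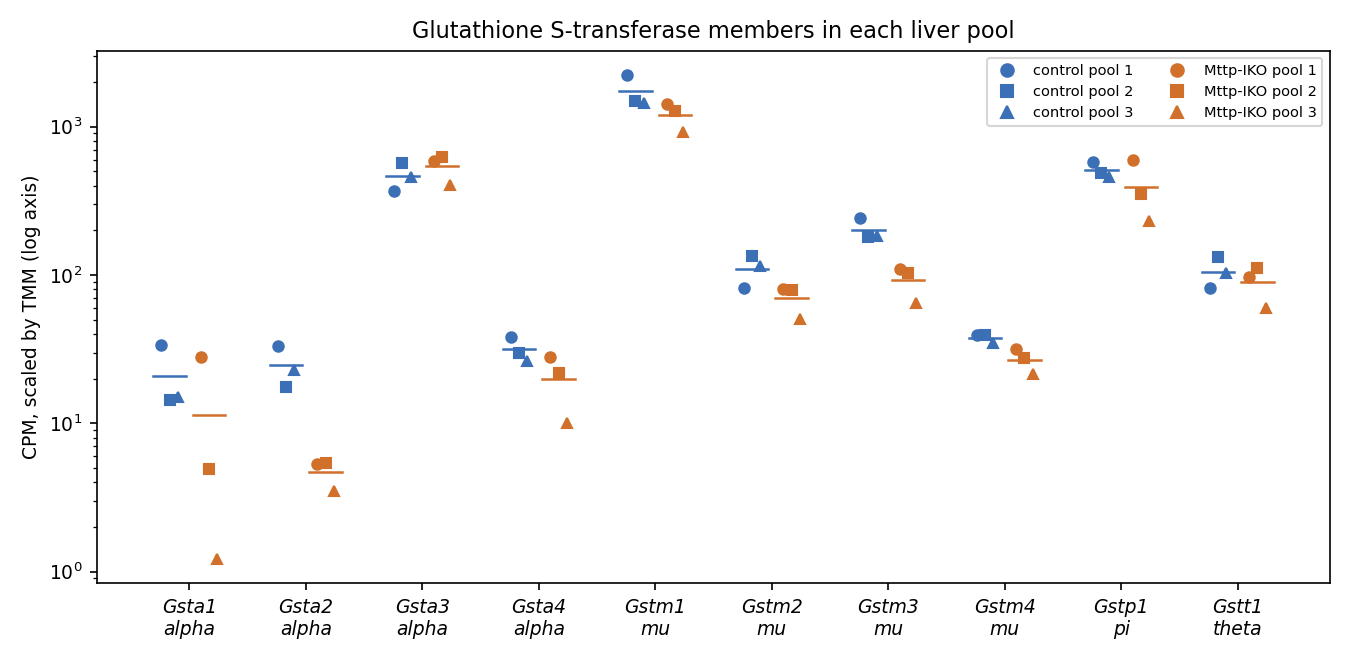
CPM (scaled by TMM, log axis) of each of the 10 GST genes in each of the 3 control (blue) and 3 *Mttp-IKO* (orange) pools, with a short line at each genotype's mean and the class under the name. *Mttp-IKO* pools lie below all control pools for Gsta2 and the 4 mu genes, and *Mttp-IKO* pool 3 is the lowest *Mttp-IKO* pool for every gene.

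Among alpha genes, Gsta2, which encodes a subunit that reduces lipid hydroperoxides, changed most of the 10 in the comparison of all pools. It was at 33.4, 17.7 and 23.0 CPM in control pools 1 to 3 and at 5.3, 5.4 and 3.5 CPM in *Mttp-IKO* pools. Every *Mttp-IKO* pool was thus well below every control pool. Mean values were 24.7 ± 8.03 (SD, n = 3) and 4.73 ± 1.08 CPM, a 5.21-fold fall (log2 fold change -2.38 ± 0.289 (SE), adjusted p = 0.0159, edgeR). The gene lies on chromosome 9 from 78331018 to 78355788 (ENSMUSG00000057933). The call was lost when control pool 1, control pool 3, *Mttp-IKO* pool 1 or *Mttp-IKO* pool 2 was left out, with adjusted p of 0.0551 to 0.0914 (edgeR) and a log2 fold change between -2.48 and -2.12.

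Gsta1 (ENSMUSG00000074183, chromosome 9, 78230656 to 78242684), a close copy of Gsta2 known for strong induction by antioxidants, was far more uneven. Control pools were at 33.6, 14.4 and 14.9 CPM and *Mttp-IKO* pools at 27.9, 4.9 and 1.2 CPM. *Mttp-IKO* pool 1 lay among the control pools while pools 2 and 3 lay below them, and pool 3 held 29 reads against 1355 in control pool 1. The difference did not pass the test (log2 fold change -0.88, 95% interval -2.94 to 1.18, adjusted p = 0.593, edgeR), and its size turned on single pools and on the method. Without *Mttp-IKO* pool 1 the log2 fold change was -2.75 (adjusted p = 0.0896, edgeR), larger than that of Gsta2 without this pool (-2.47), whereas it was -0.37 without control pool 1, -0.52 without *Mttp-IKO* pool 2 and -0.35 without *Mttp-IKO* pool 3. With limma-voom it was -1.71 (adjusted p = 0.294). The alpha gene copy Gm10639, closer in coding sequence to Gsta2 (98.5% identical) than to Gsta1 (97.3%), had the order of pools of Gsta1, at 8.4, 3.1 and 3.8 CPM in control and 7.6, 0.82 and 0.084 CPM in *Mttp-IKO* pools (adjusted p = 0.670, edgeR). Its value in *Mttp-IKO* pool 3 came from only 2 reads. Gm10639 also shared 30.75% of the runs of 50 bases of Gsta1.

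Gsta3 (ENSMUSG00000025934, chromosome 1, 21240589 to 21265661), whose product conjugates the epoxide of aflatoxin, was the only GST gene of the 10 with a log2 fold change above 0. Its values of 366, 573 and 457 CPM in control and 588, 627 and 404 CPM in *Mttp-IKO* pools overlapped (log2 fold change 0.21, 95% interval -0.35 to 0.78, adjusted p = 0.639, edgeR). Gsta4 (ENSMUSG00000032348, chromosome 9, 78191966 to 78209348), whose product prefers 4-hydroxynonenal and related aldehydes of lipid peroxidation, was at 38.2, 29.7 and 26.5 CPM in control and 27.9, 21.9 and 10.1 CPM in *Mttp-IKO* pools. The genotypes overlapped through *Mttp-IKO* pool 1, and the difference did not pass (log2 fold change -0.65, 95% interval -1.44 to 0.13, adjusted p = 0.293, edgeR).

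Each of the 4 mu genes had lower values in every *Mttp-IKO* pool than in any control pool, and 1 of them passed the test. Gstm1 (ENSMUSG00000058135, chromosome 3, 108012255 to 108017973), the main mu subunit of mouse liver, was at 2231, 1497 and 1449 CPM in control and 1424, 1269 and 914 CPM in *Mttp-IKO* pools. The closest pools, control 3 and *Mttp-IKO* 1, almost touched, and the difference did not pass (log2 fold change -0.52, 95% interval -1.12 to 0.081, adjusted p = 0.277, edgeR). Gstm3 (ENSMUSG00000004038, chromosome 3, 107963696 to 107969283), a mu gene often read as a target of NRF2 in mouse liver, was at 243, 181 and 183 CPM in control and 110, 103 and 64.4 CPM in *Mttp-IKO* pools. Here a wide gap separated the genotypes. The mean fell from 203 ± 35.2 to 92.6 ± 24.7 CPM (SD, n = 3), a 2.19-fold difference (log2 fold change -1.13 ± 0.242 (SE), adjusted p = 0.0459, edgeR). This call lay close to the threshold. It was lost with limma-voom (adjusted p = 0.0533) and whenever a pool other than *Mttp-IKO* pool 3 was left out (adjusted p of 0.0628 to 0.177, edgeR).

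Gstm2 (ENSMUSG00000040562, chromosome 3, 107981702 to 107986453), a further mu subunit, was at 81.9, 135 and 115 CPM in control and 79.8, 79.4 and 50.1 CPM in *Mttp-IKO* pools. Control pool 1 nearly met the *Mttp-IKO* pools, and the log2 fold change of -0.66 (95% interval -1.24 to -0.086) had an adjusted p of 0.168 (edgeR). Gstm4 (ENSMUSG00000027890, chromosome 3, 108040408 to 108044894), the least abundant mu gene of the 4, was at 39.2, 39.2 and 34.6 CPM in control and 31.5, 27.5 and 21.4 CPM in *Mttp-IKO* pools. Its 3 *Mttp-IKO* pools were all lower by a small margin (log2 fold change -0.49, 95% interval -0.90 to -0.087, adjusted p = 0.152, edgeR).

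The pi gene Gstp1 (ENSMUSG00000060803, chromosome 19, 4035407 to 4037921), a major GST of male mouse liver, was at 574, 490 and 458 CPM in control and 597, 354 and 231 CPM in *Mttp-IKO* pools. The *Mttp-IKO* pools were spread around the control pools, with pool 1 above all of them and pools 2 and 3 below (log2 fold change -0.36, 95% interval -1.11 to 0.39, adjusted p = 0.541, edgeR). Without *Mttp-IKO* pool 1 the log2 fold change was -0.79 (adjusted p = 0.126, edgeR). A second row under the same symbol, on a patch sequence, held 0 reads. Gstp2, the near copy, was at 35.5, 19.9 and 23.9 CPM in control and 24.3, 10.6 and 16.4 CPM in *Mttp-IKO* livers (a log2 fold change of -0.63, adjusted p = 0.294, edgeR). The theta gene Gstt1 (ENSMUSG00000001663, chromosome 10, 75783813 to 75798584), whose product acts on small halogenated hydrocarbons, was at 81.1, 131 and 103 CPM in control and 97.3, 112 and 59.5 CPM in *Mttp-IKO* pools. These overlapped as well (log2 fold change -0.23, 95% interval -0.86 to 0.39, adjusted p = 0.643, edgeR).

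*Mttp-IKO* pool 3 was the lowest *Mttp-IKO* pool in all 10 GST genes, where it was so in 40.1% of all genes tested, and the lowest of the 6 pools in 9, against 29.5% of all genes. Control pool 1 was the highest control pool in 7 of the 10 and *Mttp-IKO* pool 1 the highest *Mttp-IKO* pool in 7, against 36.9% and 30.6% of all genes. Of the transcripts under 1000 nt, Gsta1, Gsta4 and Gstp1 had lengths of 956, 957 and 757 nt in the files, the range in which pool 3 held few reads. Without pool 3, the log2 fold change was -0.35 for Gsta1, -0.33 for Gsta4 and -0.091 for Gstp1. Values of longer transcripts moved too, to -0.0083 for Gstt1 and 0.39 for Gsta3, while Gsta2 (-2.21, adjusted p = 0.0191, edgeR) and Gstm3 (-0.92, adjusted p = 0.0350, edgeR) still passed. With each pool's trend with gene length removed, the values of Gsta1, Gsta4 and Gstp1 were -0.92, -0.63 and -0.32, close to those of all 6 pools without this step.

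Levels of different genes were compared as RPKM, the CPM per kilobase of the gene length in the files. Gstm1 was the most abundant in both genotypes, at 1238 ± 314 RPKM in control and 862 ± 187 RPKM in *Mttp-IKO* pools (SD, n = 3), followed by Gstp1 at 670.1 ± 79.4 and 521 ± 246 RPKM. Gstm1 exceeded Gstp1 in each of the 6 pools. Gstm3 (154 ± 26.8 RPKM in control pools) and Gsta3 (107 ± 23.9 RPKM) came next in control livers and changed places in *Mttp-IKO* livers, at 70.7 ± 18.8 and 124 ± 27.4 RPKM. Gstt1, Gstm2, Gsta4, Gstm4, Gsta1 and Gsta2 followed, with Gstt1 at 68.8 and 58.5 RPKM and Gsta2, the lowest, at 20.99 and 4.02 RPKM. Of these neighbors, Gstt1 and Gstm2, and Gstm4, Gsta1 and Gsta2 in control livers, differed by less than their spread. The order rests on the lengths in the files, 4344 nt for Gsta3 against 1311 nt for Gstm3. In CPM, Gsta3 was above Gstm3 in both genotypes, at 465 against 203 in control and 540 against 92.6 in *Mttp-IKO* pools. RPKM also makes no allowance for the sequence that Gsta1, Gsta2 and Gstp1 share with other genes.

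By class, mu genes made up 61.3% ± 3.32 of the summed RPKM of the 10 genes in control and 58.2% ± 4.93 in *Mttp-IKO* pools, and the pi gene 28.0% ± 1.29 and 29.1% ± 5.54. The alpha genes made up 7.72% ± 1.04 and 9.30% ± 0.606, and the theta gene 2.97% ± 1.01 and 3.41% ± 0.646. The alpha share was at most 8.61% in a control pool and at least 8.92% in an *Mttp-IKO* pool, without overlap, while the shares of the other classes overlapped. Within the alpha class, Gsta3 made up 4.61% ± 1.5 of the total in control and 7.34% ± 1.10 in *Mttp-IKO* pools, without overlap. These shares rest on the gene lengths in the files, which is 4344 nt for Gsta3, with a coding sequence of 666 bases. In CPM, which is not divided by length, alpha genes summed to 542 in control and 576 in *Mttp-IKO* pools. The pi gene was at 507 and 394 CPM. The sum over the 10 genes was 2857, 2241 and 2108 RPKM in control and 2222, 1770 and 1199 RPKM in *Mttp-IKO* pools, so that the genotypes overlapped through *Mttp-IKO* pool 1. The summed CPM of mu genes had a log2 ratio of the means of -0.58, against -0.36 for the pi and -0.23 for the theta gene. With a pool left out these ran from -0.72 to -0.39 for mu, -0.79 to -0.093 for pi and -0.42 to -0.011 for theta genes, and the order of the classes was not fixed. The pi gene had the lower value without *Mttp-IKO* pool 1 (-0.79 against -0.72 for mu genes). Without control pool 1 the theta gene was slightly below the mu genes (-0.391 against -0.385). For the alpha genes, which Gsta3 dominates, it was 0.086, a value that turned below 0 with scaling by total counts (-0.090) and when control pool 1, *Mttp-IKO* pool 1 or *Mttp-IKO* pool 2 was left out. The summed RPKM of the alpha genes was lower in *Mttp-IKO* pools, at 161 ± 47.3 against 183 ± 13.2 in control pools.

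**Figure D2:**
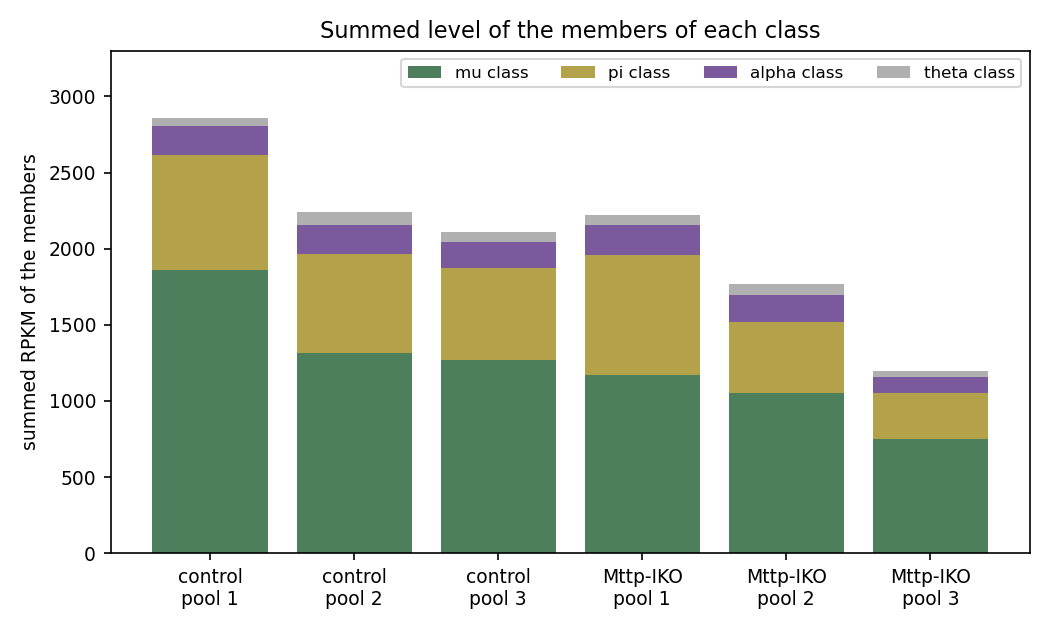
Summed RPKM of the members of the mu (green), pi (yellow), alpha (purple) and theta (gray) classes, stacked for each of the 6 liver pools. Mu genes form the largest part of each bar, and the total ranges from 2857 RPKM in control pool 1 to 1199 RPKM in *Mttp-IKO* pool 3.

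Ratios of genes within a pool do not depend on the scaling of the pools, and 4 of them, not planned beforehand, were compared. Gsta2 and Gstm3, the genes that passed above, are numerators here, so that their ratios are no independent support. The ratio of Gsta2 to Gsta3, in RPKM, was 0.337, 0.114 and 0.186 in control and 0.0334, 0.0317 and 0.0318 in *Mttp-IKO* pools. The *Mttp-IKO* ratios lay almost on each other and far below the control ratios, with a mean log2 difference of -2.58. The ratio of Gstm3 to Gstm1 was 0.116, 0.129 and 0.135 in control and 0.0823, 0.0866 and 0.0749 in *Mttp-IKO* pools, a log2 difference of -0.64, again without overlap. Gstm3 was thus lower relative to the gene of its class closest in sequence in each *Mttp-IKO* pool. For both ratios the exact permutation test (two-sided) gave p = 0.1 (0.2 after adjustment over the 4 ratios), the smallest p that 3 pools against 3 allow. The ratios of Gsta1 to Gsta2 (1.24, 1.003 and 0.799 against 6.45, 1.13 and 0.430) and of Gstp1 to Gstp2 (16.4, 25.0 and 19.5 against 25.0, 33.9 and 14.3) overlapped, each with an exact permutation p of 0.8. In *Mttp-IKO* pool 1, the RPKM of Gsta1 was 6.45 times that of Gsta2, its near copy.

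**Figure D3:**
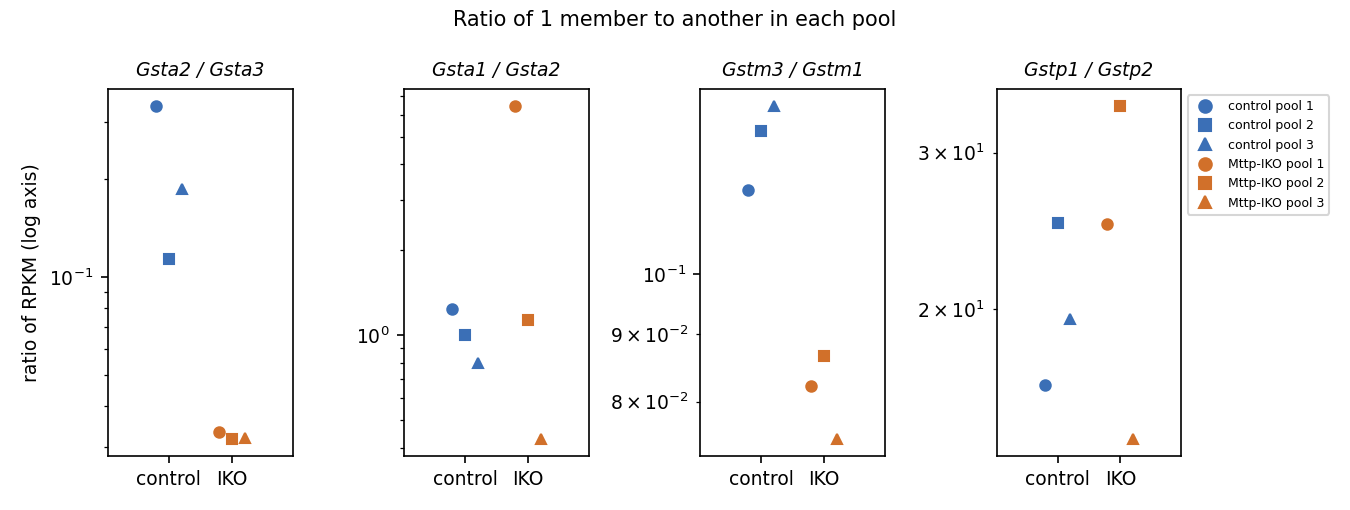
Ratio of the RPKM of 1 gene to that of another (log axis, own scale in each panel) in each control (blue) and *Mttp-IKO* (orange) pool. The *Mttp-IKO* ratios of Gsta2 to Gsta3, from 0.0317 to 0.0334, and of Gstm3 to Gstm1, from 0.0749 to 0.0866, lie below all control ratios, and those of the other pairs overlap.

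Across the 6 pools, the levels of GST genes on a log2 scale went together in most pairs, with Pearson r between -0.37 and 0.99 and a median of 0.74 over 45 pairs; the pools share depth and composition, and these values are a description. The closest pair was Gsta1 and Gstp1 (r = 0.99), of different classes. Gsta2 was closest to Gstm3 (r = 0.97), and its correlation with Gsta3 was -0.37. Pairs of mu genes ran from 0.51 to 0.96 and pairs of alpha genes from -0.37 to 0.95. Among 11774 protein-coding genes other than GSTs, those whose levels were most like the summed CPM of each class over the 6 pools were Anxa8 (r = 0.993), Chp2 and Pgrmc2 for alpha, H2-Q1 (r = 0.999), Tyms and Ube2m for mu, Sdf2l1 (r = 0.995), H2afx and Mrpl21 for pi, and Fn3krp (r = 0.989), Rida and Igfbp6 for theta. Such high values are the best of many genes over few pools, and none of these 12 genes passed the test between genotypes.

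Sequence before the start of transcription was available from RefSeq (GRCm38.p6) for 9 of the 10 genes, in 11 promoters, and not for Gsta4. Promoters of 250 bases before to 50 after the start were searched on both strands for TGACNNNGC, the core of the antioxidant response element to which NRF2 binds, and for TNGCGTG, the core of the xenobiotic response element of the aryl hydrocarbon receptor. The first was found in Gsta3 alone of the 9 and in 12.4% of all 32851 promoters, and the second in Gsta2 alone and in 5.07% of all promoters; the motifs do not overlap each other here. Gsta2 is the alpha gene that passed the test between genotypes, and Gsta3 the one with a log2 fold change above 0. The 250 bases before the start of Gsta2 (chr9:78347146-78347395, minus strand) and Gsta3 (chr1:21240335-21240584, plus strand) are shown, with the match in capitals.
Gsta2: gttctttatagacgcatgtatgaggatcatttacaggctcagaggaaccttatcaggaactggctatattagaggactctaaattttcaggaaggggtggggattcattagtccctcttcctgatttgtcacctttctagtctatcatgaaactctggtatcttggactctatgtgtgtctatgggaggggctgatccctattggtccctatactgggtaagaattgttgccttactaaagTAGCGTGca
Gsta3: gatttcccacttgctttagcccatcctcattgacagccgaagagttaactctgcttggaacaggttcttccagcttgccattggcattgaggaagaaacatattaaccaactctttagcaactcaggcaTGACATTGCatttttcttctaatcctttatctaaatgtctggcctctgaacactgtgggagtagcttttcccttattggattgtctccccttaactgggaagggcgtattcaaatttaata
In Gsta2 the match began 9 bases before the start, and in Gsta3 it began 121 bases before it. The RefSeq start of Gsta2 used here lies inside the gene as counted, which runs from 78331018 to 78355788. A match of letters is a description, and elements farther away were not searched. The 250 bases before Gsta1 and Gsta2 were identical at 182 of 239 aligned bases (76.2%), less than their coding sequences.

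GST genes outside the 10 showed a mixed picture in the cytosol. Of 17 listed, 13 were in the files and 11 were tested, and 1 passed, Gstt3, a second theta gene, with a median log2 fold change of 0.015 over the 11. Gstt3 was at 9.4, 9.5 and 8.6 CPM in control and 14.7, 26.6 and 18.7 CPM in *Mttp-IKO* pools. It rose in every *Mttp-IKO* pool, by 2.18-fold (log2 fold change 1.13 ± 0.231 (SE), adjusted p = 0.0414, edgeR), whereas its neighbor Gstt1 did not pass. This call did not hold with limma-voom, nor when control pool 1, control pool 3, *Mttp-IKO* pool 1 or *Mttp-IKO* pool 2 was left out. A list of mitochondrial and membrane-bound GSTs and their relatives held Gstk1, Mgst1, Mgst2, Mgst3, Ltc4s, Alox5ap and Ptges. All 7 had log2 fold changes below 0 (median -1.07, range -1.28, for Alox5ap, to -0.17). Mgst2, Ltc4s and Ptges had low means of 0.63, 0.79 and 0.80 CPM in control pools. Of the 7 genes, 0 passed in the comparison of all pools with edgeR or limma-voom. With DESeq2, or without control pool 2 or *Mttp-IKO* pool 3, 1 passed. The plot of fold changes sets these genes beside the 10.

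**Figure D4:**
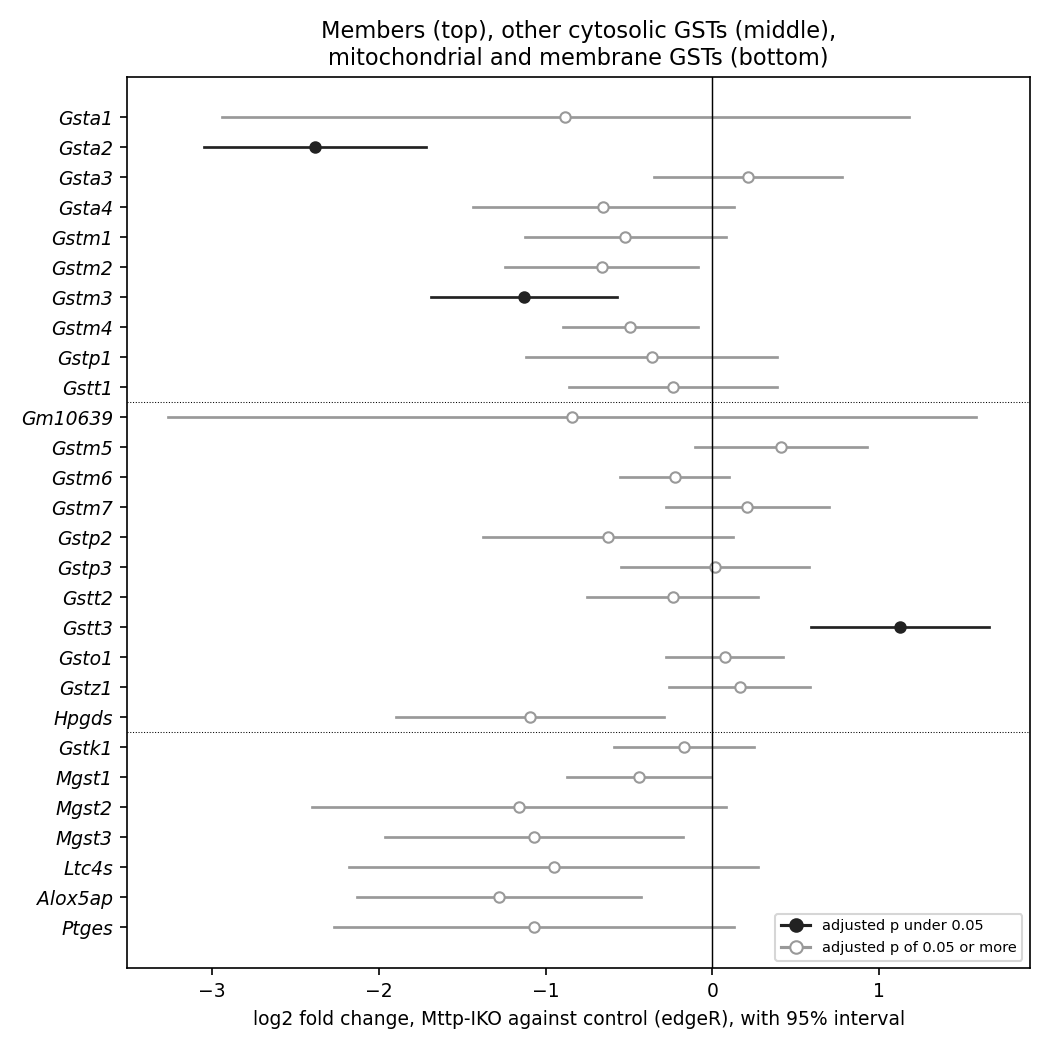
Log2 fold change (*Mttp-IKO* against control, edgeR) with its 95% interval for the 10 GST genes (top), 11 other cytosolic GST genes (middle) and the 7 genes listed as mitochondrial and membrane GSTs and relatives (bottom). Filled points mark the genes with an adjusted p under 0.05, which are Gsta2, Gstm3 and, above 0, Gstt3.

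Of 16 genes tested that make and recycle glutathione, 0 passed with edgeR and with limma-voom, 1 with scaling by total counts and 1 with DESeq2, and the median log2 fold change was -0.12. Gclc, the catalytic subunit of the enzyme that starts glutathione synthesis, was at 429, 316 and 254 CPM in control and 482, 208 and 282 CPM in *Mttp-IKO* pools. *Mttp-IKO* pool 1 was its highest pool. Anpep, a peptidase that trims conjugates, and Cbs, which feeds homocysteine toward cysteine, had log2 fold changes of -0.28 (adjusted p = 0.426) and -0.60 (adjusted p = 0.107, edgeR). Slc7a11, the cystine importer, named here after its values were seen, was at 18.8, 5.5 and 17.2 CPM in control and 47.4, 4.7 and 5.2 CPM in those of *Mttp-IKO* mice, and *Mttp-IKO* pool 1 stood out as it did for Gsta1.

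Of 11 genes that export conjugates or turn them into mercapturates, 2 passed and both were lower in *Mttp-IKO* livers. Nat8, which acetylates cysteine conjugates in the last step to mercapturates, was at 17.3, 20.5 and 21.4 CPM in control and 6.7, 10.2 and 4.8 CPM in *Mttp-IKO* livers (a log2 fold change of -1.44, adjusted p = 0.0340, edgeR). Abcc1, the export pump MRP1, was at 34.6, 18.6 and 32.3 CPM in control and 12.8, 10.8 and 13.05 CPM in *Mttp-IKO* livers (a log2 fold change of -1.22, adjusted p = 0.0390, edgeR). For both, no pools overlapped. The median of the 11 was -0.25, and 0 of them passed when control pool 1, control pool 3, *Mttp-IKO* pool 1 or *Mttp-IKO* pool 2 was left out.

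Lists of regulators and zones that bear on GST genes gave different counts. Of NRF2 and other NRF2 targets, 19 of 21 had log2 fold changes below 0 (median -0.54), but 1 passed, Ephx1, the microsomal epoxide hydrolase (-1.21, adjusted p = 0.0496, edgeR), and the count ran from 0 with DESeq2's size factors to 6 with scaling by total counts or with DESeq2's own test. The most abundant of this list were the ferritin genes Ftl1 (-0.95, adjusted p = 0.0658) and Fth1 (-0.80, adjusted p = 0.265) and the peroxiredoxin gene Prdx1 (-0.88, adjusted p = 0.0749, edgeR). Scaling by total counts moved the median log2 fold change of all genes to -0.18. Of 13 CAR and PXR genes, 10 were above 0 (median 0.66) and 2 rose, the cytochrome P450 genes Cyp2b13 (3.15, adjusted p = 0.0181) and Cyp2c29 (2.15, adjusted p = 0.0370, edgeR).

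Of 14 female-biased liver genes tested, 6 rose and 0 fell (median log2 fold change 2.29), among them Cux2 (3.29, adjusted p = 0.0159, edgeR), a regulator expressed in female liver, and Cyp2b13, which is also in the preceding list. Cyp3a41a (4.68) and Cyp3a41b (5.22), near-identical copies whose reads are hard to assign, and Sult3a1, with 0 reads in all control pools, also rose. Of 15 male-biased genes, 1 passed, Cyp2d9, which was higher in *Mttp-IKO* livers (1.15, adjusted p = 0.0389, edgeR). Serpina1e of this list was at 35.8, 86.3 and 91.6 CPM in control and 89.0, 105 and 2240 CPM in those of *Mttp-IKO* mice, and *Mttp-IKO* pool 3 stood apart here as well, and Mup20 did not pass (-1.67, adjusted p = 0.0994, edgeR). Pericentral genes had a median of -0.10 over 11 and periportal genes of 0.35 over 12, with 0 past the threshold in either in the comparison of all pools with edgeR and limma-voom, and 2 and 1 with DESeq2. With scaling by total counts 1 pericentral gene passed, and without *Mttp-IKO* pool 3 1 periportal gene did. Each of the counts for NRF2, CAR and PXR, female-biased and male-biased genes dropped to 0 or 1 when control pool 1, control pool 3, *Mttp-IKO* pool 1 or *Mttp-IKO* pool 2 was left out. Without *Mttp-IKO* pool 3 they were 2, 2, 7 and 7, and the count of male-biased genes thus went from 1 to 7. Among the most abundant pericentral and periportal genes, Cyp2e1, Glul and Gulo had log2 fold changes of 0.50, -1.07 and 0.0079, and Alb and Cps1 of 0.95 and 0.70.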

How the data were processed

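RNA-Seq of liver was analysed in 3 control and 3 *Mttp-IKO* pools, with groups and replicates taken from the labels. The authors aligned reads with STAR 2.5.1a to the Ensembl release 76 assembly (GRCm38), used featureCounts 1.4.6-p5 to count, for 41388 genes, the reads with a single unambiguous alignment, and deposited these counts. The authors also deposited CPM and RPKM, which follow from the counts in all 6 files and were not tested. A deposited table of all pools gave symbols for 40481 genes, and 276 repeated lines were dropped. Whether strand was used in counting was not given in the sources used here.

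Genes were filtered by edgeR 4.0.16 (filterByExpr, minimum count 10 and minimum total 15), scaled by TMM (factors 0.898 to 1.11) and compared by glmQLFit and glmQLFTest in R 4.3.3, with Benjamini-Hochberg adjustment over 17287 genes and a threshold of 0.05. RPKM was recomputed from TMM-scaled CPM. The limit set by a count of 0 was 3 reads, that is 0.0828 to 0.119 CPM in the 6 pools, for counting error only. Pools of a genotype differed by far more than sampling noise. On simulated counts for this comparison, edgeR recovered 174 of 200 genes changed 4-fold among 16907, with 13 false calls.

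Members and lists were chosen with earlier results of these data known. Genes named are the 10 members, other GST genes past the threshold and copies that share sequence with a member, up to 5 called genes of each other list (the 3 most abundant where fewer than 2 passed), Mttp, and the 3 genes most like each class over the pools. Any other gene is named because a count turned on it, to show what a list held or, where the text says so, after its values were seen. One gene that this rule names is not reported here. Ratios were tested by the exact permutation test over all splits of the pools, with Benjamini-Hochberg adjustment by scipy 1.17.1. Coding sequences of APPRIS principal transcripts of GENCODE M21 were aligned with Biopython 1.88, and figures drawn with matplotlib 3.10.9. Alternatives were other scalings, DESeq2 1.42.0, limma-voom (limma 3.58.1), other filters, protein-coding genes only, removal of each pool's loess trend with gene length (span 0.3), a replicate block, a threshold of 0.1 and leaving out each pool.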

Additional observations from a re-analysis of the deposited data

How the results depend on the processing

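The count of 2 GST genes past the threshold was the same with the other scalings, filters, gene set, length correction and threshold tried and with DESeq2, and 1 with limma-voom, which left Gsta2. Leaving out each pool in turn gave 0 to 2. It was 0 without control pool 1, control pool 3 or *Mttp-IKO* pool 2 (3 genes each at an unadjusted p under 0.05, edgeR) and without *Mttp-IKO* pool 1 (7 genes), and 1 without control pool 2. The count over all genes, 694, became 1995 with DESeq2, 428 with limma-voom and 1658 at a threshold of 0.1, and 0 to 892 with a pool left out (0 without *Mttp-IKO* pool 2, with 3221 at an unadjusted p under 0.05). The cause was not tested. The log2 fold change of none of the 10 GST genes changed sign under any alternative run. The direction of the alpha class sum did, as given above. Alternatives for the other lists were added after seeing the data.

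Whether replicate numbers pair the pools was not settled. Same-numbered pools deviated together with correlations of 0.139, 0.112 and 0.0070, and pools of different numbers with -0.125 to 0.0208. Each control pool was most like the *Mttp-IKO* pool of its own number, but *Mttp-IKO* pool 3 was most like control pool 2. With a replicate block, 2 GST genes and 592 genes in all passed, and Gstt3 no longer did. The block moved the log2 fold change of Gsta1 to -1.66 (adjusted p = 0.161, edgeR), and 7 GST genes had an unadjusted p under 0.05. Pools, not mice, set the precision.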
